A study of Rattus norvegicus with 10 samples.

Results

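The genes for the protein components of the cytosolic ribosome were followed through the left hippocampus of 10 male TgF-344AD rats, transgenic animals that serve in work on Alzheimer disease. In the BT-11 group, 5 rats ate BT-11 chow for 6 months, starting at an age of 5 months, and in the untreated group 5 rats ate rodent chow without it. BT-11 is a small molecule given by mouth that binds LANCL2, and the study asked which hippocampal genes differed between treated and untreated transgenic males. All 10 rats carried the transgenes, were male and were 11 months old. All were anaesthetized with ketamine at 100 mg/kg and xylazine at 10 mg/kg and perfused with cold PBS, and no wild-type rats were used here.

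Genes were taken by name, as every symbol of the count table that follows the pattern for a large subunit (Rpl, Rplp) or small subunit (Rps, Rpsa) protein. Kinases of the Rps6k family, Rps19bp1, Rpl7l1, Rpl22l1, Rpl26l1, Rpl39l and names of pseudogenes were left out. This gave 82 of 13686 symbols, 48 for the large and 34 for the small subunit. Counts of all lines of a symbol were summed, and 81 of the 82 passed the filter on low counts. The exception was Rpl3l, the paralog of Rpl3 that is known from striated muscle, which had 0.265 to 0.881 CPM in each library (CPM is a read count scaled to the total of its library).

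The ribosome translates messenger RNA. Its small subunit reads the message and its large subunit joins the amino acids, and since a ribosome holds its proteins in near equal number, the genes are usually expressed in proportion. In mammals their messages begin with a short run of pyrimidines at the 5′ end, the terminal oligopyrimidine (TOP) motif, through which mTOR signalling and the La-related protein Larp1 control their translation as a group. In neurons a share of ribosomes and of these messages is found in dendrites and axons, and local protein synthesis there is linked to synaptic plasticity.

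Many of the annotated start sites carry such a run in the reference sequence. RefSeq promoters of the rat build GRCr8 were matched for 66 of the 82 symbols (67 entries), and 16 symbols had no entry. The stretches printed here run 5′ to 3′ on the gene's strand, from 40 bases before to 20 bases from the annotated start, and capitals mark each run of a C and at least 4 further bases, each C or T, whose first marked C lies within 10 bases of the start on either side. A run that reaches further upstream, as in Rpl35, is marked from the first C inside that window. They were chosen from the genes on which the comparisons turn, with Rpl3 and Rps27l as examples from the 16 tested genes in which no such run was found.
Rplp0, chr12:46718371-46718430, minus strand: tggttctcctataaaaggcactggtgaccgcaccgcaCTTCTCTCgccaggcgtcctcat
Rplp1, chr8:71290853-71290912, minus strand: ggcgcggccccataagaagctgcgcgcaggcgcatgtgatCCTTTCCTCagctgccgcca
Rpl22, chr5:168117921-168117980, plus strand: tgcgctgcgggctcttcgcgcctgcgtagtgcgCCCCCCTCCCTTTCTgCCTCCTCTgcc
Rpl35, chr3:43165902-43165961, minus strand: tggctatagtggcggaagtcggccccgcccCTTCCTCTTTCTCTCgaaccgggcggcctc
Rps15a, chr1:181860265-181860324, minus strand: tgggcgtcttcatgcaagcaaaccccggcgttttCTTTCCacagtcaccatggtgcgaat
Rps27, chr2:177964587-177964646, minus strand: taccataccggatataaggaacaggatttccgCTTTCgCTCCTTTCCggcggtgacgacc
Rpl37a, chr9:81748051-81748110, plus strand: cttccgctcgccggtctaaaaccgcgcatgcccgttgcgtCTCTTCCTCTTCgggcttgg
Rpl3, chr7:113507971-113508030, minus strand: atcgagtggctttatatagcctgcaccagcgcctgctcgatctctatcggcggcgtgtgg
Rps27l, chr8:76443618-76443677, plus strand: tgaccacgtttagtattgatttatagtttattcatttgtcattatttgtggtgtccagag

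A run of this kind on the sense strand was found in 49 of the 67 ribosomal protein entries (73.1%), against 27.8% of all 33469 promoters of the same length. On the other strand of the same window the shares were 16.4% of the ribosomal protein entries and 33.6% of all promoters. The letters CGGAAG, a core that ETS family factors such as GABPA bind, stood on either strand in 52.2% of the ribosomal protein entries and in 16.6% of all promoters of 300 bases. TATAA on the sense strand, 40 to 20 bases before the start, stood in 8.96% of the ribosomal protein entries and 2.17% of all promoters. These are matches of letters in a window, and the sense run and CGGAAG were searched independently and may overlap.

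Most ribosomal protein genes were among the more abundant messages of the hippocampus per unit length: 76 of the 82 lay above the 90th percentile of the genes tested, at 76.8 CPM per kilobase. The median of the 82 genes was 275 CPM per kilobase of listed transcript length, against 12.5 CPM per kilobase over the 11771 genes tested. The large subunit genes had a median of 292 CPM per kilobase (n = 48) and the small subunit genes 257 CPM per kilobase (n = 34), with quartiles of 154 and 392 for the large and 151 and 354 for the small. In all, 73 of the 82 lay between 100 and 600 CPM per kilobase.

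The highest levels per length were those of Rpl41 at 731, Rplp1 at 709 and Rpl37 at 581 CPM per kilobase. Rpl41 encodes a very short basic peptide of the large subunit, Rplp1 is a protein of the flexible stalk that recruits elongation factors, and Rpl37 is a zinc-binding protein of the large subunit. Rps23 (562 CPM per kilobase), of the decoding centre, led the small subunit genes. In the plot of levels per length the 2 subunits are interleaved, and a small group stands at the low end: Rps27l at 9.01, Rpl37a at 6.90, Rps4y2 at 3.69 and Rpl3l at 0.397 CPM per kilobase. Rps27l is a paralog of Rps27 that p53 is known to induce, and Rps27 itself was at 138 CPM per kilobase.

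**Figure D1:**
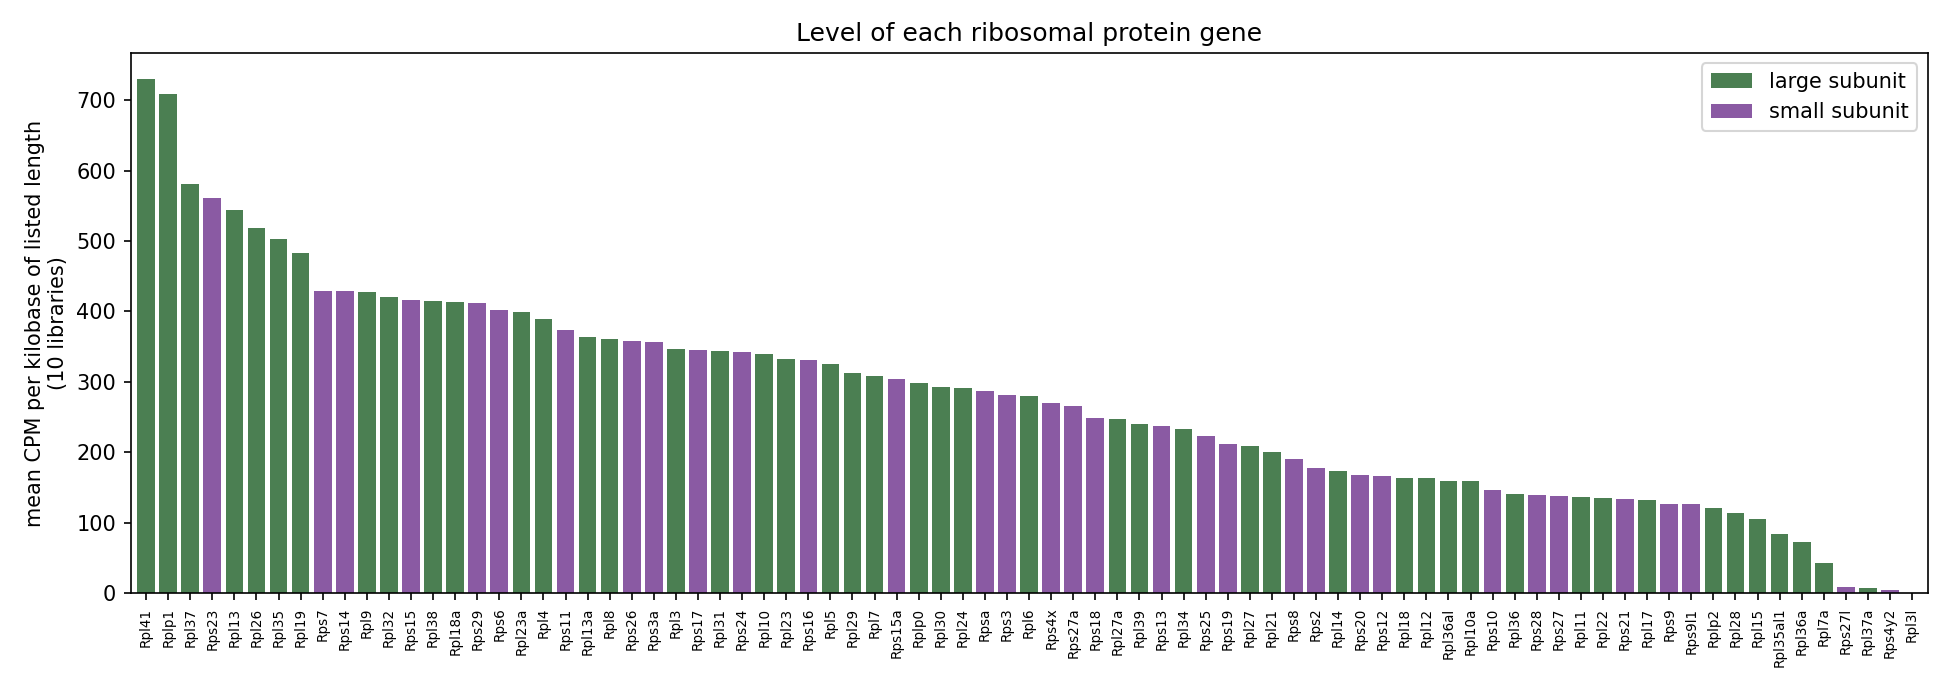
Mean level of 81 of the 82 ribosomal protein genes over the 10 libraries, in CPM per kilobase of listed transcript length (y axis), in descending order (x axis), green for large and purple for small subunit genes. Bars are means with no error shown, and they run down to 0.397 CPM per kilobase for Rpl3l at the right end, with Rpl41 at 731 at the left.

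These levels depend on how reads were shared among genomic copies, since ribosomal protein genes have many processed copies in rodent genomes. The 82 symbols were spread over 104 lines of the table, and for 18 lines of 12 symbols the listed span equals the transcript length within 1 base, as for a copy without introns. Those lines held 12.6% of the counts of all the ribosomal protein genes, and in 11 symbols the line with the highest count was one of them. Rps4y2 (listed in build rn6 on the plus strand of chromosome 4, 182745448 to 182746382) and both lines of Rps20 (plus strand of chromosome 5, 161889230 to 161889732, and of chromosome 3, 22964230 to 22964733) are such cases, and so is the line of Rpl37 (plus strand of chromosome 10, 64336189 to 64336548), the third highest gene per length. In addition, 19 lines of 6 symbols, some of them among those without introns, held the same values as another line in all 10 libraries, among them Rps6 and the pair Rps9 and Rps9l1. Rps9 and Rps9l1 were both at 95.6 CPM, with lines at the same listed positions, and Rps9l1 is listed in RefSeq as a synonym of Rps9. Whether the same reads were counted under both names or split between them was not settled. Both were kept among the 82 symbols, so both values enter the small subunit sums and the ratios, and both names enter the counts of genes. Levels of single genes with copies are uncertain because of how reads were shared. This holds also for Rps14, whose only line has the span of a copy without introns, and for Rpl7a, whose 2 lines both do. Rpl37a, at the low end per length, had 2 overlapping lines on chromosome 9, with mean counts of 22.6 and 1.56. Neither has the span of a copy without introns. Whether reads of Rpl37a were assigned to other copies was not tested, so its low value may not be its true level.

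Depth was similar across libraries, at 8984439 to 11301545 summed counts. Neuronal and astrocytic markers marked every library as brain tissue, with 16 pan-neuronal markers summing to 9187 to 12986 CPM and 16 astrocyte markers to 10670 to 12978 CPM, and no marker of any list was at 0 in all libraries. Markers of the choroid plexus epithelium set 2 libraries apart, with 10 markers summing to 3805 CPM in untreated 2 and 732 CPM in untreated 5, against 8.32 to 69.3 CPM in the other 8. The labels do not describe libraries numbered 4 and 5 as a batch. Expression had set them apart from those numbered 1 to 3 in an earlier pass over these data. The difference between the numbered sets is therefore described here and not tested.

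The ribosomal protein genes together made up 1.21% to 1.77% of the counts of a library. Their summed level in BT-11 libraries 1 to 5 was 14969, 15996, 13706, 12777 and 12908 CPM. In untreated libraries 1 to 5 it was 17737, 16003, 14629, 12148 and 13026 CPM. The group ranges overlapped almost wholly, and in both groups libraries 4 and 5 were the lowest pair.

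The mean sum was 14071 ± 1385 CPM in BT-11 and 14709 ± 2249 CPM in untreated rats (SD, n = 5 each), a ratio of 0.957. The difference between the groups was smaller than the SD within either. Untreated 1 was the highest library, and without it the ratio was 1.01. In bulk tissue, fewer cells of a type with many ribosomes and less ribosomal protein message per cell cannot be told apart.

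Large and small subunit genes went together across libraries. The large subunit sum was 8844 ± 876 CPM in BT-11 and 9264 ± 1407 CPM in untreated rats, and the small subunit sum 5228 ± 509 CPM in BT-11 and 5445 ± 843 CPM in untreated rats (SD, n = 5 each). The ratio of large to small was 1.70, 1.69, 1.70, 1.67 and 1.70 in BT-11 libraries 1 to 5, and 1.69, 1.71, 1.70, 1.71 and 1.70 in untreated libraries 1 to 5. It averaged 1.691 ± 0.0133 in BT-11 and 1.702 ± 0.0075 in untreated rats. The lowest ratio was that of BT-11 library 4, and the ranges of the groups overlapped. Over the 10 libraries the highest sum was 1.46 times the lowest, while the highest ratio was 1.02 times the lowest.

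**Figure D2:**
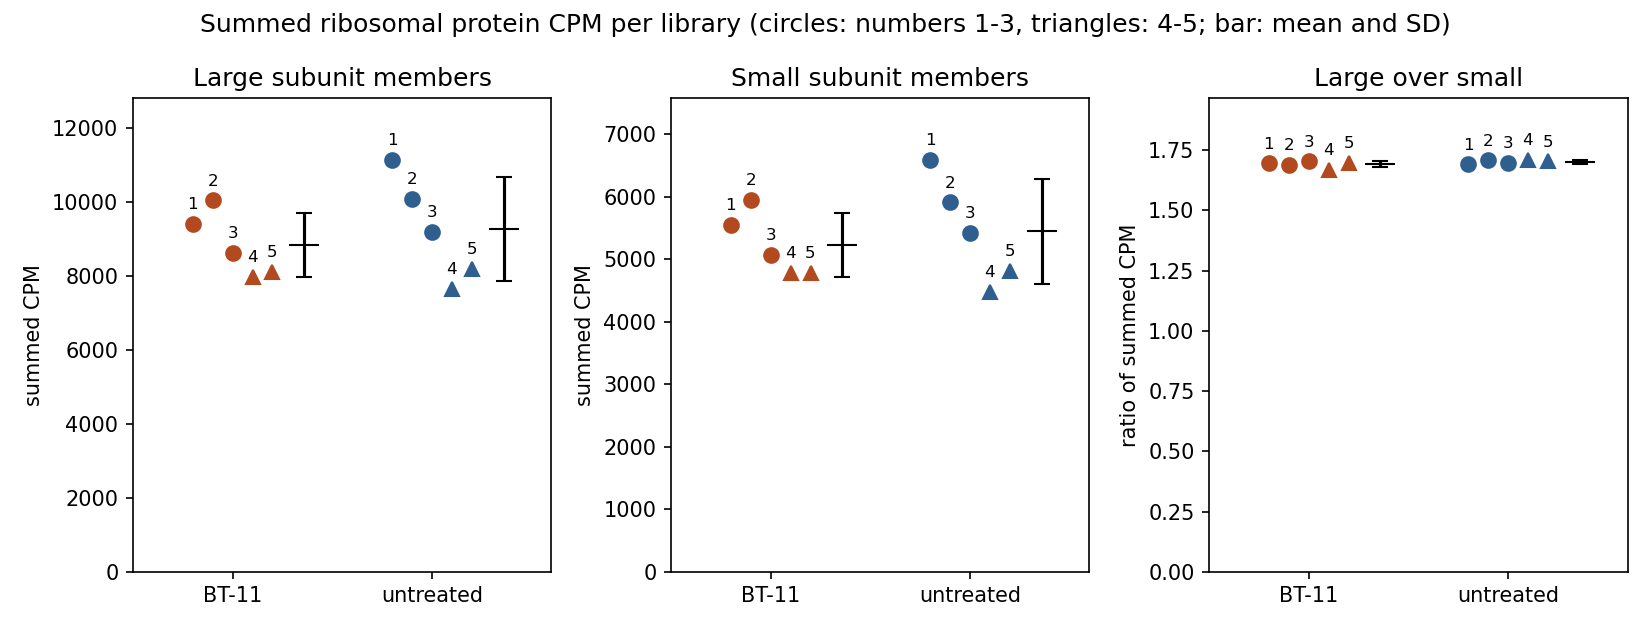
Summed CPM of large subunit genes (left), of small subunit genes (middle) and their ratio (right) in each library, with BT-11 left of untreated and numbers beside the points. Circles are libraries 1 to 3, triangles are libraries 4 and 5, and bars give the mean and SD of each group of 5; the triangles lie lowest in both groups for both subunits, while the ratio lies between 1.669 and 1.710 in all 10.

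The same order of libraries was seen in nearly every single gene. Relative to each gene's own mean over 10 libraries on the log2 scale, 78, 79, 22, 2 and 0 of the 81 tested genes lay above the mean in BT-11 libraries 1 to 5. In untreated libraries 1 to 5 the counts were 81, 79, 59, 1 and 0. The median distance of the genes from their own mean was 0.08, 0.14, -0.03, -0.17 and -0.16 in BT-11 libraries 1 to 5 and 0.39, 0.16, 0.03, -0.25 and -0.15 in untreated libraries 1 to 5, in log2 units. The median over all genes tested lay between 0.00 and 0.01 in each library. The heat map shows the libraries as horizontal bands that cross both subunits, with Rpl37a, Rps4y2 and Rps27l as the columns that break the bands. Across libraries, the SD of log2 CPM had a median of 0.20 in ribosomal protein genes, against 0.19 in all genes tested, with 0.60 in Rpl37a, 0.55 in Rps4y2 and 0.33 in Rps27l at the upper end and 0.09 in Rpl3 at the lower.

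**Figure D3:**
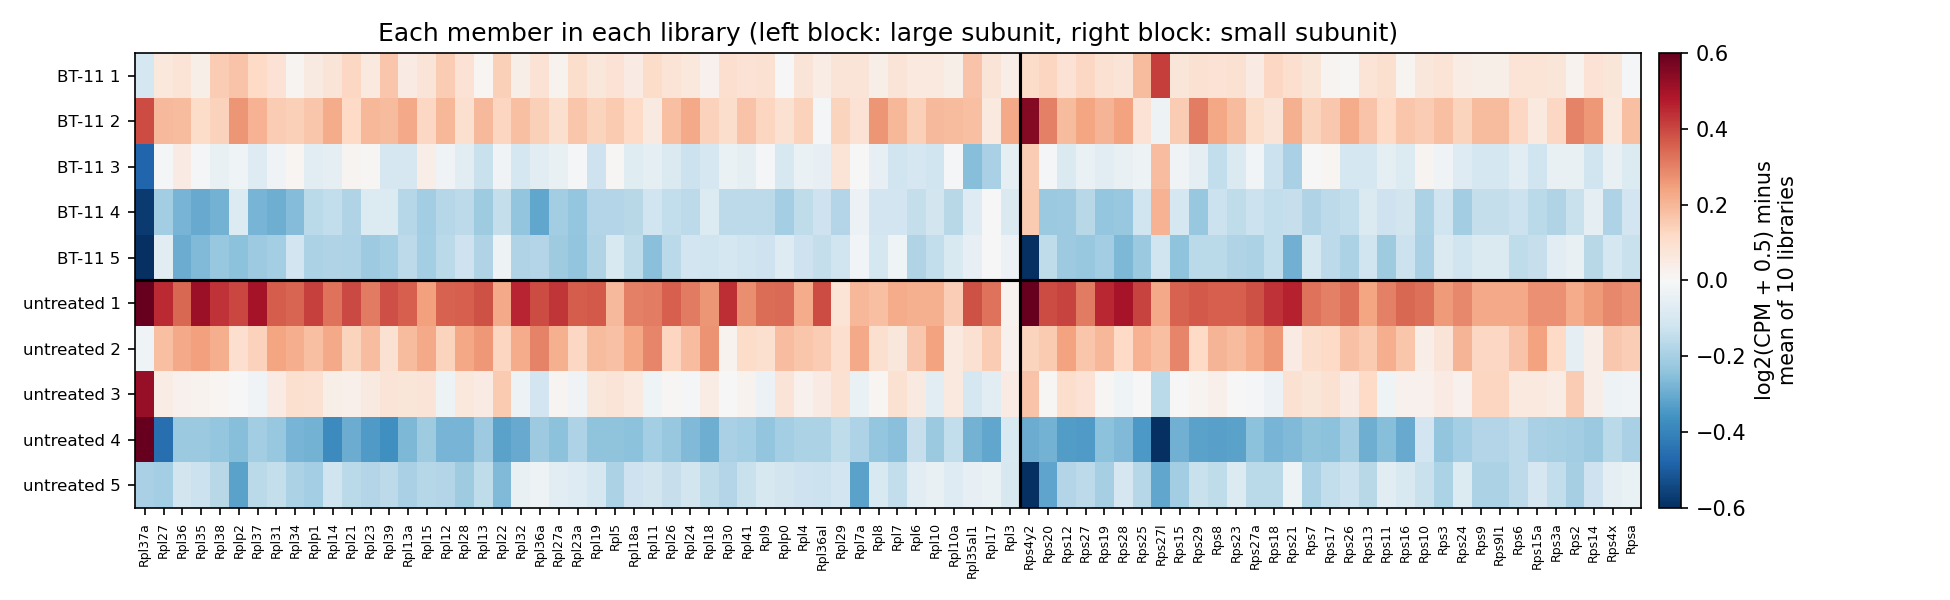
The values of 80 of the 81 tested genes (columns, large subunit left and small subunit right of the line) in each library (rows, BT-11 above untreated), as log2(CPM + 0.5) minus the gene's mean over the 10 libraries. The colour scale ends at 0.6 in either direction, and values beyond it take the end colour; untreated 1 is red in nearly every column, and rows 4 and 5 of both groups are blue in nearly every column.

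BT-11 was tested gene by gene over the whole table with edgeR's quasi-likelihood test. At an adjusted p of 0.05 it called 0 of the 81 ribosomal protein genes, beside 0% of the 11771 genes tested. DESeq2 called 0 of the 81 at the same threshold, beside 36 of all genes. At an unadjusted p under 0.05 edgeR held 1 ribosomal protein gene as lower and 0 as higher, beside 5.05% and 4.04% of all genes. In no ribosomal protein gene did the 5 BT-11 libraries lie apart from the 5 untreated libraries, a separation seen in 1.26% of all genes.

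The fold changes were small and mostly below 0. Of the 81 genes 74 had a negative log2 fold change, with BT-11 over untreated, beside 51.8% of all genes tested. The median was -0.08, with -0.08 for the large subunit genes (43 of 47 below 0) and -0.08 for the small subunit genes (31 of 34 below 0), against -0.01 over all genes. This count rested on untreated 1: without it 28 of the 81 were below 0 and the median was 0.02. Without untreated 4 the median was -0.15, and with the trend with transcript length removed it was -0.02. With 1 surrogate variable in the design 34 were below 0, with a median of 0.01.

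**Figure D4:**
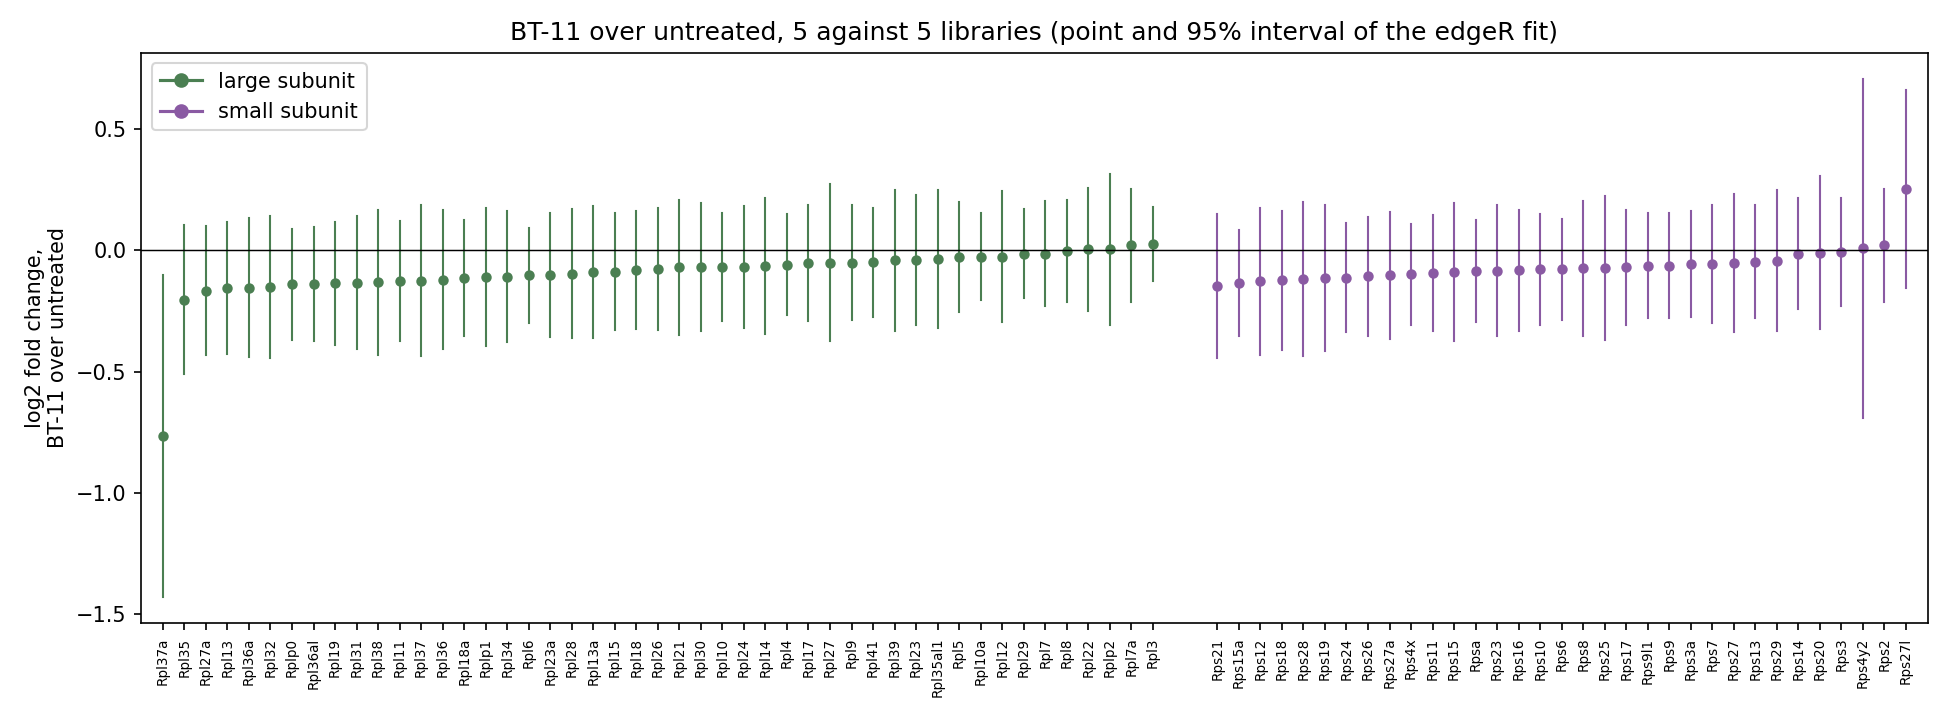
Log2 fold change of 80 of the 81 tested genes, BT-11 over untreated (y axis), with its 95% interval from the edgeR fit on 5 against 5 libraries, sorted within the large (green, left) and the small subunit (purple, right). Except for Rpl37a, with an interval from -1.43 to -0.10 and an adjusted p of 0.501, each interval spans 0, and most points lie just below it.

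Rpl37a, which encodes a zinc-binding protein of the large subunit, had the smallest p of the group (in rn6 on the plus strand of chromosome 9, 80002922 to 80004996). It was at 2.09, 3.16, 1.503, 1.37 and 1.04 CPM in BT-11 libraries 1 to 5, against 4.001, 2.24, 3.51, 3.78 and 1.94 CPM in untreated libraries 1 to 5. The groups overlapped, since BT-11 library 2 lay above untreated 2 and 5. The log2 fold change was -0.76 ± 0.306 (SE), with an unadjusted p of 0.0275 and an adjusted p of 0.501. These values rest on 12 to 31 counts in a BT-11 and 20 to 37 in an untreated library.

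The other genes with the smallest p in this direction were at ordinary levels. Rpl35, a protein near the exit of the nascent peptide, was at 227, 239, 220, 180 and 184 CPM in BT-11 libraries 1 to 5, against 316, 263, 225, 190 and 203 CPM in untreated libraries 1 to 5. Untreated 1 and 2 lay above each BT-11 library, and the ranges overlapped from 190 to 239 CPM. Its log2 fold change was -0.20 ± 0.142 (SE; adjusted p = 0.691).

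Rplp0, the base of the stalk that recruits elongation factors and a common reference gene in quantitative PCR, was at 323, 345, 303, 281 and 307 CPM in BT-11 libraries, against 410, 368, 341, 281 and 300 CPM in untreated libraries 1 to 5. Untreated 1 and 2 lay above each BT-11 library, while numbers 4 and 5 were between 281 and 307 CPM in both groups. The log2 fold change was -0.14 ± 0.106 (SE; adjusted p = 0.714). For Rpl27a it was -0.17 ± 0.123, for Rps15a -0.13 ± 0.10 and for Rpl36al, a functional copy of Rpl36a, -0.14 ± 0.107, with adjusted p from 0.707 to 0.723. Rpl36a itself had -0.15 ± 0.132.

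A positive log2 fold change was found in 7 genes, Rps27l, Rpl3, Rpl7a, Rps2, Rpl22, Rplp2 and Rps4y2, and in 4 to 12 genes under the other scalings. Rps27l (in rn6 on the plus strand of chromosome 8, 72741155 to 72746091) was at 8.39, 6.02, 7.07, 7.20 and 5.63 CPM in BT-11 libraries 1 to 5, against 7.31, 7.05, 5.45, 3.90 and 4.87 CPM in untreated libraries 1 to 5. BT-11 library 1 was the highest and untreated 4 the lowest, and the ranges overlapped from 5.63 to 7.31 CPM. The log2 fold change was 0.25 ± 0.188 (SE; adjusted p = 0.71).

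Rpl3, which lies close to the peptidyl transferase centre, was the steadiest of the group (in rn6 on the minus strand of chromosome 7, 121297361 to 121302740). It was at 459, 523, 429, 421 and 436 CPM in BT-11 libraries 1 to 5, against 454, 455, 462, 419 and 418 CPM in untreated libraries 1 to 5. All but BT-11 library 2 lay between 418 and 462 CPM. The log2 fold change was 0.03 ± 0.0707 (SE), with a 95% interval from -0.13 to 0.18. For Rpl7a, Rps2, Rpl22, Rplp2 and Rps4y2 the log2 fold change lay between 0.00 and 0.02.

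Genes with roles beyond the ribosome showed no difference past the test either. Rps6, the substrate of the S6 kinases downstream of mTOR, was at 339, 349, 306, 293 and 288 CPM in BT-11 libraries 1 to 5, against 376, 361, 334, 287 and 287 CPM in untreated libraries 1 to 5. The ranges overlapped, and the log2 fold change was -0.08 ± 0.0958 (SE; adjusted p = 0.835). Rpl5 and Rpl11, which form a particle that binds the p53 regulator Mdm2, had log2 fold changes of -0.03 ± 0.104 and -0.13 ± 0.114. Rps14 and Rps19, whose human counterparts are tied to anaemias with defective ribosome assembly, had -0.01 ± 0.105 and -0.11 ± 0.139. Rpsa, also known as a laminin receptor, had -0.09 ± 0.0973, Rps3, which lines the entry of the message channel, -0.01 ± 0.102, and Rps4x -0.10 ± 0.0957. Rps27 and the ubiquitin fusion gene Rps27a had -0.05 ± 0.131 and -0.10 ± 0.121. Rpl10, which is needed for late maturation of the large subunit, had -0.07 ± 0.102, and Rpl41 and Rplp1 had -0.05 ± 0.103 and -0.11 ± 0.130. In this set the adjusted p ran from 0.756 for Rpl11 to 0.990 for Rps3.

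The larger difference among these rats followed the library numbers. The summed level was 12715 ± 391 CPM in libraries 4 and 5 of both groups (SD, n = 4) and 15507 ± 1397 CPM in libraries 1 to 3 (SD, n = 6), a ratio of 0.820, and the ranges did not overlap (12148 to 13026 CPM, against 13706 to 17737 CPM). Within BT-11 the means were 12843 CPM in numbers 4 and 5 and 14890 CPM in numbers 1 to 3, a ratio of 0.862. Within untreated they were 12587 CPM in numbers 4 and 5 and 16123 CPM in numbers 1 to 3, a ratio of 0.781. All 81 genes had a lower mean log2 CPM in libraries 4 and 5 than in 1 to 3, beside 50.9% of all genes tested. The median difference was -0.31 log2 units, with -0.32 for the large and -0.30 for the small subunit genes, against -0.00 over all genes.

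In 64 of the 81 genes each of the 4 libraries numbered 4 and 5 lay below each of the 6 numbered 1 to 3 on TMM-scaled log2 CPM, beside 4.37% of all genes tested. The count was 37 of 47 for the large subunit genes and 27 of 34 for the small subunit genes. On CPM without further scaling it was 53 of the 81, and the share over all genes on that scale is not given here. On TMM-scaled values no ribosomal protein gene had the opposite arrangement, beside 5.56% of all genes. Within BT-11 alone libraries 4 and 5 lay below libraries 1 to 3 in 72 genes, beside 15.2% of all genes, and within untreated alone in 76 genes, beside 22.2%. The difference was below 0 in 80 of the 81 genes within BT-11, beside 49.6% of all genes, and in 81 within untreated, beside 51.2%. Its median was -0.22 log2 units within BT-11 and -0.39 within untreated.

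Rplp1 (in rn6 on the minus strand of chromosome 8, 66862143 to 66863477) shows the pattern in a gene of high level. In BT-11 libraries it was at 311 and 305 CPM in numbers 4 and 5, against 362, 391 and 333 CPM in numbers 1 to 3. In untreated libraries it was at 286 and 302 CPM in numbers 4 and 5, against 463, 395 and 371 CPM in numbers 1 to 3. The 2 sets of libraries did not overlap in either group, with a difference of -0.36 log2 units over all 10 libraries.

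Rps20, a protein of the head of the small subunit, had one of the 3 most negative differences, -0.42 log2 units. It was at 70.8 and 74.5 CPM in BT-11 and 68.0 and 66.5 CPM in untreated libraries 4 and 5, against 90.7, 102 and 82.1 CPM in BT-11 and 109, 92.6 and 83.3 CPM in untreated libraries 1 to 3. No library numbered 4 or 5 reached the lowest of numbers 1 to 3. The most negative values, -0.80 for Rps4y2 and -0.47 for Rpl37a, came from the 2 genes of lowest level among those tested, and their sets overlapped. Rps4y2 had 1.43 to 3.70 CPM in numbers 4 and 5 and 3.57 to 5.23 CPM in numbers 1 to 3.

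The differences nearest to 0 were those of Rpl3 at -0.14, Rpl17 at -0.16 and Rpl35al1 at -0.21 log2 units, all large subunit genes. Rpl3 was at 418 to 436 CPM in numbers 4 and 5 and at 429 to 523 CPM in numbers 1 to 3. Rpl17, which lies at the exit of the peptide tunnel, was at 81.1 and 80.6 CPM in BT-11 and 65.0 and 78.6 CPM in untreated libraries 4 and 5, against 85.3, 84.1 and 70.5 CPM in BT-11 and 101, 89.8 and 77.1 CPM in untreated libraries 1 to 3. It was the single gene with a difference above 0 within BT-11 (0.01). Besides these 3 genes and Rpl37a and Rps4y2, the sets also overlapped in Rpl10, Rpl32, Rpl36a, Rpl6, Rpl7, Rpl7a, Rps14, Rps2, Rps21, Rps27l and Rpsa, among others.

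Transcript length moved with the same split over the whole table. When the genes tested were divided into 4 groups by listed length, genes that are no ribosomal protein genes had median differences of -0.13, -0.05, 0.02 and 0.11 log2 units in numbers 4 and 5 against 1 to 3, shortest group first. The shortest group ran from 141 to 1497 bases and held 79 of the 81 ribosomal protein genes, whose median there was -0.30, and 74.2% of the other genes in it were below 0. Among the 81 genes themselves, Spearman's rho between length and difference was 0.47, and over all 11771 genes it was 0.43, both as descriptions across genes that share the same libraries. Over the 2 kinds of promoter, the median difference was -0.32 in the 49 genes with a pyrimidine run at the start and -0.28 in the 16 tested genes without one. Of the marker lists, 10 of 15 microglial markers were lower in numbers 4 and 5, with a median of -0.18 log2 units and sums of 893 to 938 CPM in numbers 4 and 5 and 893 to 1128 CPM in numbers 1 to 3. The medians were -0.06 for 16 pan-neuronal, 0.06 for 16 astrocyte and 0.03 for 17 oligodendrocyte markers. They were 0.40 for 5 tested choroid plexus markers, 0.06 for 14 meningeal, -0.05 for 10 endothelial and 0.03 for 3 erythroid markers. The part of length, of cell makeup and of RNA quality in the difference was not tested, and no RNA quality values were used here.

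**Figure D5:**
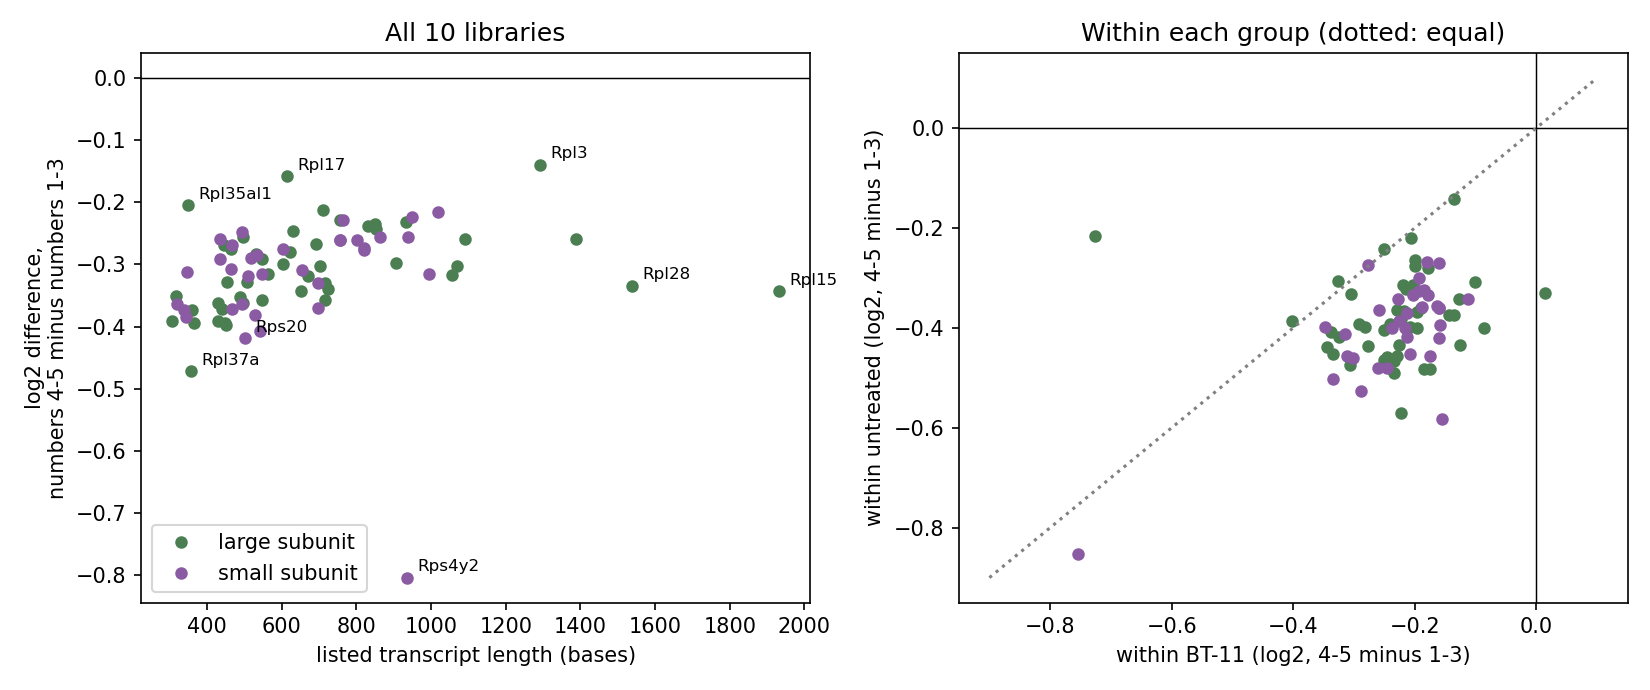
Difference in mean log2 CPM, libraries 4 and 5 minus libraries 1 to 3, for each of the 81 genes against its listed transcript length in bases (left), and the same difference computed within BT-11 (x axis) and within untreated (y axis, right; the dotted line marks equal values). All 81 points on the left lie below 0, from -0.80 for Rps4y2 to -0.14 for Rpl3, and on the right most points lie below the dotted line, with medians of -0.22 within BT-11 and -0.39 within untreated.

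Because the numbered sets differed, BT-11 was also set against untreated within each. The p-values within the sets and of the interaction rest on a split that was taken from expression in these same data. In libraries 1 to 3, 79 of the 81 genes had a negative log2 fold change, beside 49.7% of all genes, with a median of -0.13 and 0 genes called, beside 0% of all genes. In libraries 4 and 5, 25 of the 81 had a negative value, beside 48.7% of all genes, with a median of 0.04. No ribosomal protein gene was called there, beside 4.02% of all genes in edgeR's test on 2 against 2 libraries. At an unadjusted p under 0.05 were 4 of the 81 genes in that set, beside 18.6% of all genes, Rpl37a at -1.18 and Rpl22, Rpl7a and Rps27l at 0.21, 0.23 and 0.54, with adjusted p from 0.177 to 0.260.

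The difference of the effects, BT-11 over untreated in numbers 4 and 5 minus that in 1 to 3, was tested as an interaction in edgeR. It was called in 0 of the 81 genes, beside 0% of all genes, and 3 genes had an unadjusted p under 0.05, beside 10.3% of all genes. The interaction was above 0 in 77 of the 81 genes, beside 50.6% of all genes, with a median of 0.17 (0.16 for the large and 0.17 for the small subunit genes). The exceptions were Rpl37a at -0.63 and Rpl36, Rpl23a and Rpl29, each at -0.01. When single libraries were left out, the median ran from 0.06 without untreated 1, with 64 genes above 0, to 0.25 without untreated 3. Without untreated 3, 21 of the 81 genes had an unadjusted p under 0.05, beside 18.9% of all genes, and the smallest adjusted p among them was 0.114. At an adjusted p of 0.05 that edgeR fit called 0 of the 81, beside 251 of all genes. In the other 9 omissions 0 to 5 of the 81 had an unadjusted p under 0.05, with the smallest adjusted p between 0.404 and 0.910. Of all genes, at most 1 was called in these, without untreated 4.

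Rpl22, a large subunit protein that also binds RNA outside the ribosome, had the smallest interaction p (in rn6 on the plus strand of chromosome 5, 169506150 to 169512874). In numbers 4 and 5 it was at 55.0 and 59.6 CPM in BT-11, against 48.6 and 50.5 CPM in untreated rats. In numbers 1 to 3 it was at 67.3, 66.5 and 59.9 CPM in BT-11, against 71.3, 66.5 and 67.9 CPM in untreated rats. BT-11 was thus above untreated in numbers 4 and 5, while in numbers 1 to 3 no BT-11 library exceeded the highest untreated one. The interaction was 0.31 ± 0.120 (SE; unadjusted p = 0.0259, adjusted p = 0.432 in edgeR). Rpl18, Rpl28 and Rpl7a had interactions of 0.31 ± 0.137, 0.30 ± 0.138 and 0.32 ± 0.147, with adjusted p from 0.479 to 0.485.

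Genes of proteins that join the ribosome under other names likewise had lower means in numbers 4 and 5. Fau, which encodes a small subunit protein fused to a ubiquitin-like peptide, was at 149 ± 19.8 CPM in BT-11 and 158 ± 32.5 CPM in untreated rats (SD, n = 5 each). It ran from 121 to 135 CPM in numbers 4 and 5 and from 153 to 204 CPM in numbers 1 to 3. Its values in numbers 4 and 5 thus lay below those in numbers 1 to 3 with no overlap. Rack1, the scaffold on the head of the small subunit, had 122 to 135 CPM in numbers 4 and 5 and 128 to 170 CPM in numbers 1 to 3, with overlap. The log2 fold changes with BT-11 were -0.10 ± 0.141 for Fau and -0.02 ± 0.0920 for Rack1, with adjusted p of 0.858 and 0.963 in edgeR.

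Other genes of the translation machinery had medians nearer to 0 in the comparison of the numbered sets. Of 20 tested messages that are known to carry a TOP motif or to act with the ribosome, Fau and Rack1 among them, 19 were lower in numbers 4 and 5, with a median of -0.17 log2 units, and 8 lay lower without overlap, beside 4.37% of all genes. Of 71 mitochondrial ribosomal protein genes, which belong to the separate ribosome of that organelle, 64 were lower, with a median of -0.16, and 13 lay lower without overlap. The medians were -0.07 over 37 initiation factor genes, -0.08 over 11 elongation and termination factor genes and -0.09 over 36 ribosome biogenesis genes, with 5, 2 and 3 genes lower without overlap and 1, 1 and 0 higher. Over all genes 5.56% were higher without overlap. Of 23 genes of mTOR signalling and La-related regulators, 16 were higher in numbers 4 and 5, with a median of 0.09, and 3 lay higher without overlap.

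With BT-11 no gene of these lists passed edgeR's test, beside 0% of all genes. Of all genes tested, 51.8% had a negative log2 fold change, with a median of -0.01. The initiation factor genes had 26 negative and 11 positive log2 fold changes with a median of -0.04, the elongation and termination factor genes 8 and 3 with -0.09, and the TOP and ribosome-associated messages 15 and 5 with -0.06. The biogenesis genes had 26 negative and 10 positive values with a median of -0.04, the mitochondrial ribosomal protein genes 61 and 10 with -0.07, and the mTOR and La-related genes 12 and 11 with -0.01. Nop56, a nucleolar protein of small nucleolar particles, was at 73.0 ± 5.11 CPM in BT-11 and 87.2 ± 8.99 CPM in untreated rats (log2 fold change -0.27 ± 0.0844, adjusted p = 0.448). Tsc2, an inhibitor of mTOR signalling, was at 153 ± 5.90 CPM in BT-11 and 184 ± 25.2 CPM in untreated rats (-0.27 ± 0.0860, adjusted p = 0.448). The elongation factor gene Eef1a2, which neurons and muscle use, was at 1165 ± 63.0 CPM in BT-11 and 1291 ± 69.4 CPM in untreated rats (-0.16 ± 0.0672, adjusted p = 0.519). Each of these differences exceeded the SD of the BT-11 group but missed the threshold over all genes. Akt2 of the mTOR list went the other way, at 44.5 ± 5.22 CPM in BT-11 and 38.0 ± 3.91 CPM in untreated rats. Its log2 fold change was 0.21 ± 0.0929, with an adjusted p of 0.531 in edgeR.

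Markers of cell types are given beside these genes for the same comparison, and none of them passed edgeR's test. Of 16 pan-neuronal markers 15 were lower with BT-11, beside 51.8% of all genes, with a median log2 fold change of -0.16 and sums of 9187 to 11252 CPM in BT-11 and 10679 to 12986 CPM in untreated rats. Of 16 astrocyte markers 15 were lower, with a median of -0.16 and sums of 10670 to 12050 CPM in BT-11 and 10984 to 12978 CPM in untreated rats. At an unadjusted p under 0.05 were 6 of the pan-neuronal, 7 of the astrocyte, 1 of the oligodendrocyte and 0 of the microglial markers, beside 9.09% of all genes. These 6 include Rbfox3, the 1 pan-neuronal marker that was higher with BT-11. Its log2 fold change was 0.24 ± 0.0737, with an unadjusted p of 0.00585 and an adjusted p of 0.448 in edgeR. Of 17 oligodendrocyte markers 16 were higher, with a median of 0.15 and sums of 9143 to 16351 CPM in BT-11 and 8771 to 17174 CPM in untreated rats, and 9 of 15 microglial markers were lower, with 893 to 1010 CPM in BT-11 and 893 to 1128 CPM in untreated rats. Choroid plexus markers summed to 8.32 to 30.6 CPM in BT-11 and 9.52 to 3805 CPM in untreated rats, and all 5 that were tested were lower, 4 of them at such a p. Of 14 meningeal fibroblast markers 11 were lower and 6 had such a p, with 107 to 141 CPM in BT-11 and 125 to 523 CPM in untreated rats. Of 10 endothelial markers 9 were lower, with 398 to 500 CPM in BT-11 and 430 to 488 CPM in untreated rats, and all 3 tested erythroid markers were higher, with 10.3 to 146 CPM in BT-11 and 5.57 to 37.6 CPM in untreated rats. Without untreated 2 and 5, 78 of the 81 ribosomal protein genes were lower with BT-11, with a median of -0.10, against 0.00 over all genes. That fit kept untreated 1, and with only untreated 1 left out 28 of the 81 were lower. The part of the other cell types in the ribosomal protein values was not tested.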

How the data were processed

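Strand-specific mRNA libraries from total RNA were sequenced as single-end reads, per the labels' protocols. Per the submitters' processing notes, the build was rn6 and the tools were STAR 2.7.9a, bcl2fastq 2.19.1.403, DESeq2 and Partek, with no roles stated. How reads were counted, with which annotation and strand setting, was not given in the sources used here, and overlapping or antisense genes may share reads. The authors deposited a table of estimated counts, 83.4% of them whole numbers, and a table of CPM. The authors' deposited CPM equal the count over the column total plus an offset of 1e-04, within 0.0706 CPM. Whether listed starts count from 0 or 1 was not settled.

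Estimated counts were summed per symbol, rounded and tested with the robust quasi-likelihood test of edgeR 4.0.16 in R 4.3.3, after TMM scaling and edgeR's default filter on low counts (11771 genes kept, 1915 not). Two-sided p-values received the Benjamini-Hochberg adjustment over all genes kept. They weigh the group difference against the spread between these rats, which had a biological coefficient of variation of 0.14. CPM came from unrounded counts over the column total, and comparisons of numbered sets used log2 CPM with a prior count of 2 and TMM scaling. Levels per length used the listed length of each symbol's highest line. Replicates differed by more than sampling noise (chi-square per degree of freedom 4.52 to 32.4).

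The ribosomal protein genes, the other lists and the split by number were chosen with earlier results of these data known. Named genes were those with the smallest p in each direction (6 each), the 3 highest and 3 lowest levels per length, the 3 most and 3 least negative set differences, the 3 largest SDs, the 4 smallest interaction p and a fixed set of well known members. Of other lists, up to 3 genes with the smallest p could be named, beside Fau and Rack1. For 2 genes single values are not reported here, and plots that label each gene leave out 1 of them, while counts and sums include it. Other settings were DESeq2 1.42.0, limma-voom and limma 3.58.1 on the authors' CPM (pseudocount 1 or 0.1), other scalings and filters, untouched lines of the table, a replicate block, a covariate for the numbered sets, 1 surrogate variable (sva 3.50.0), removal of a length trend and the omission of libraries. Settings for the numbered sets, the interaction and the sum without Rps9l1 were added after the data were seen. The fitting steps were tested on simulated counts.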

Additional observations from a re-analysis of the deposited data

How the results depend on the processing

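The ribosomal protein genes had 0 calls with BT-11 under each setting that gives a test. The count of all genes called was 36 with DESeq2, 479 in numbers 4 and 5 alone (a fit on 2 against 2 libraries) and 0 to 62 when single libraries were left out, the highest without untreated 3. Ribosomal protein genes with a negative log2 fold change numbered 34 with 1 surrogate variable, 25 in numbers 4 and 5 alone and 28 to 79 when single libraries were left out, against 74 over all 10 libraries. With the length trend removed, the count was 50. The median of the initiation factor genes became 0.0251 and that of the biogenesis genes 0.0310 in numbers 4 and 5 alone. The median of the elongation and termination factor genes was -0.0324 with 1 surrogate variable, -0.0398 in numbers 4 and 5 alone, -0.0301 without untreated 2 and 5 and -0.105 to -0.0280 when single libraries were left out. The cause of these shifts was not tested.

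Libraries with the same number had correlations of their deviations from 0.042 for number 5 to 0.221 for number 1. Since 1 of the 5 was under 0.1, the numbers were not taken as pairs. With the replicate block, 0 ribosomal protein genes were called, 72 of 81 were lower and the median was -0.07. Numbers 2, 3 and 4 correlated best with their own number, a hint from the data and not the design, and 1 and 5 did not. The count of 64 genes without overlap between numbered sets ran from 64 to 72 when single libraries were left out. With fewer libraries such a separation is easier for any gene, and the shares over all genes in these omissions are not given here. Of the 34 named genes and 4 sums, in both groups, none had a library set apart by Dixon's criterion in 76 tests. Without molecular identifiers, errors from amplification are not covered by the intervals.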
